A study of Homo sapiens with 6 samples.

Results

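A set of 10 genes of insulin-like growth factor (IGF) signalling is described here, in crizotinib-resistant H3122 cells and in control H3122 cells. H3122 is a human lung adenocarcinoma line, and crizotinib inhibits the receptor kinases ALK and MET. The genes were taken by name from the deposited expression table: 3 receptors (IGF1R, INSR and IGF2R), 2 adaptors (IRS1 and IRS2) and 5 binding proteins (IGFBP2, IGFBP3, IGFBP4, IGFBP5 and IGFBP6). They are 10 of 51537 genes in the table, and all 10 were among the 16077 genes tested. The resistant group was 3 libraries of the line named H3122CR, selected under rising crizotinib concentrations that began at 0.1 µM and ended at 10 µM, and the control group was 3 libraries of H3122 cells. The labels name 1 resistant line and do not say whether it is a clone, or whether the drug was in the medium when RNA was taken. They also do not say that replicates were separate cultures, so the p-values rest on a spread that may be technical.

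IGF1 and IGF2 signal through IGF1R, and insulin signals mainly through INSR. Both are receptor tyrosine kinases that phosphorylate IRS1 and IRS2, which then recruit phosphatidylinositol 3-kinase (PI3K) and lead to AKT and mTOR activity. IGF2R, the cation-independent mannose 6-phosphate receptor, has no kinase domain and carries IGF2 and lysosomal enzymes into the cell. The binding proteins are secreted, hold IGF1 and IGF2 outside the cell and limit or prolong their access to IGF1R. In ALK-driven lung cancer cells, IGF1R and IRS1 are known as a parallel route for growth signals under ALK inhibition.

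Poly(A) RNA was sequenced, and values are TPM, transcript abundance scaled by gene length and by library, so that every library has the same sum. TPM keeps no depth; rebuilding reads from gene lengths gave an estimated 29856914 to 36695595 reads per library. The epithelial keratins of such a line were abundant, with KRT8 at 6226 TPM in resistant and 6492 TPM in control cells. Epithelial markers were not all level between the groups. Of 9 tested by the rule given below, 3 were higher in resistant cells, 3 were lower and 3, KRT8 among them, did not pass. The shares of all tested genes were 24.0% higher and 24.7% lower. KRT19 was at 6245 TPM in resistant and 4945 TPM in control cells, and EPCAM at 248 TPM in resistant and 319 TPM in control cells. NKX2-1, a defining lung lineage factor, was below 1 TPM in all 6 libraries. Among markers of other cell types, 11 of 12 fibroblast, 7 of 9 endothelial and 7 of 10 immune genes were below 1 TPM in every library. The fibroblast markers DCN and LUM, the endothelial markers KDR and ERG, and the immune markers LYZ and MS4A1 were listed at 0 in all 6. The summed fibroblast markers were at 14.4 to 15.8 TPM in resistant and 4.42 to 4.99 TPM in control libraries, most of it from COL1A1. The summed endothelial markers were at 5.95 to 7.66 TPM in resistant and 8.18 to 8.99 TPM in control libraries. Most of this sum came from CDH5 and PECAM1, which went opposite ways. CDH5 was at 3.45 TPM in resistant and 7.24 TPM in control cells, and PECAM1 at 2.80 TPM in resistant and 0.912 TPM in control cells. For the summed immune markers the ranges were 6.50 to 7.999 TPM in resistant and 6.11 to 6.75 TPM in control libraries. The part of these markers in the results below was not tested. In bulk RNA, fewer cells of a type and less RNA per cell cannot be told apart.

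Of the 10 genes, 7 fell in resistant cells, 1 rose and 2 did not pass the test. The 7 that fell were IGF1R, INSR, IRS2, IGFBP2, IGFBP3, IGFBP4 and IGFBP5, the 1 that rose was IRS1, and the other two were IGF2R and IGFBP6. A gene is said to have risen or fallen when its Benjamini-Hochberg adjusted p over all tested genes was below 0.05 by limma on log2(TPM + 1). By that rule 24.7% of all tested genes were lower in resistant cells and 24.0% were higher, 48.6% in all. The median log2 change, resistant minus control, was -0.54 over the 10 genes and -0.0044 over all 16077. Resistant and control libraries did not overlap for 9 of the 10, the exception being IGFBP6, against 57.9% of all tested genes. Without resistant replicate 1, IGFBP6 also rose, which made 2 that rose. A change of at least 2-fold on the log2(TPM + 1) scale was reached by 2 of the 10, IGFBP4 and IGFBP5, and by 5.98% of all tested genes. IGFBP4 only just reached it, at -1.01. It fell short without resistant replicate 1 (-0.92), without control replicate 2 (-0.97) and in limma-voom on rebuilt reads (-0.998).

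**Figure D1:**
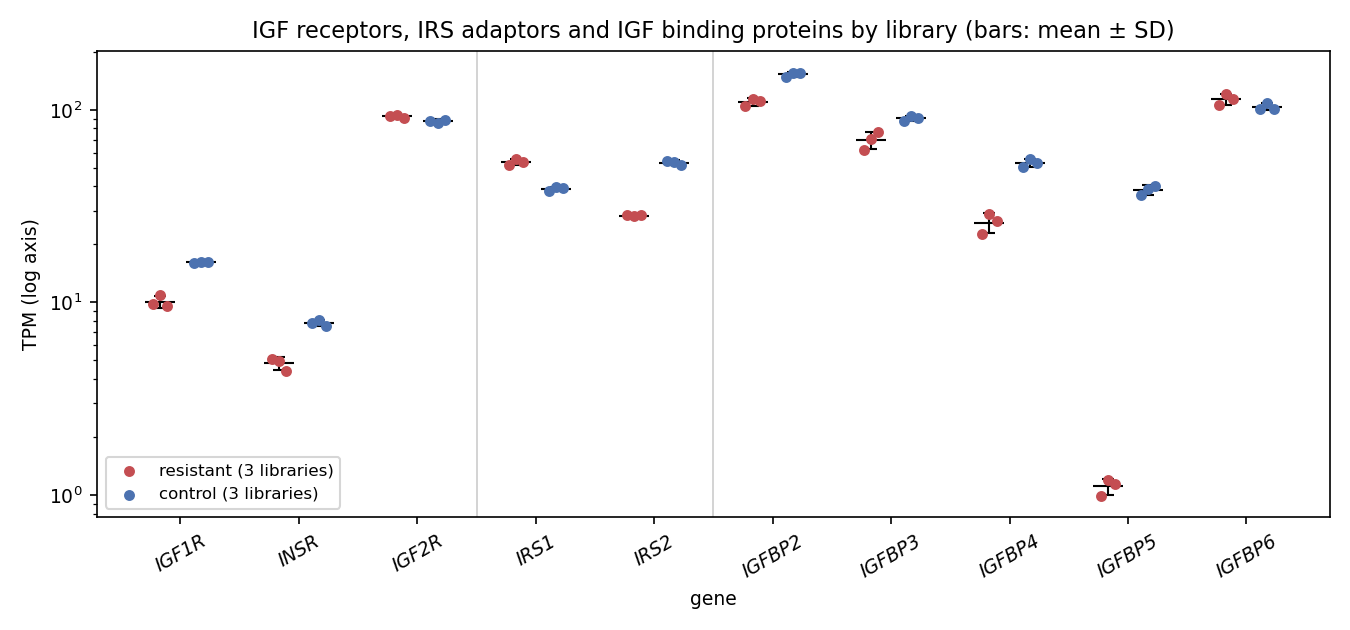
TPM on a log axis for each of the 10 genes, with 1 point per library, resistant to the left of control, and bars for mean ± SD (n = 3 per group). IGFBP5 stands near 1 TPM in the resistant libraries and near 40 TPM in the control libraries, and the points of IRS1 and IRS2 change order between the groups.

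Both signalling receptors were lower in resistant cells. IGF1R (ENSG00000140443, chromosome 15, 98648539 to 98964530, GENCODE 29 on GRCh38) had 9.82, 10.9 and 9.53 TPM in the resistant libraries, against 16.1, 16.1 and 16.3 TPM in the control libraries. The control libraries were almost level with each other, and every resistant library lay below them. The fitted log2 change was -0.63 ± 0.07 (SE; adjusted p = 2.38e-04). INSR (ENSG00000171105, chromosome 19, 7112255 to 7294034), the insulin receptor, had 5.08, 4.96 and 4.41 TPM in the resistant libraries, against 7.84, 8.12 and 7.58 TPM in the control libraries. Again the groups did not overlap (log2 change -0.61 ± 0.08, adjusted p = 7.67e-04). The receptors kept nearly the same proportion to each other: IGF1R over INSR was 2.10 ± 0.143 in resistant and 2.06 ± 0.0797 in control libraries (SD, n = 3 each). An exact two-sided permutation test of that ratio gave p = 0.8, where 3 libraries against 3 cannot give less than 0.1.

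IGF2R, the receptor without a kinase, did not fall with them. IGF2R (ENSG00000197081, chromosome 6, 159969099 to 160113507) had 92.8, 94.0 and 90.3 TPM in the resistant libraries, against 87.9, 85.9 and 89.0 TPM in the control libraries. Each resistant library was above each control library, but the difference was small and did not pass the test (log2 change 0.08 ± 0.04, 95% interval -0.016 to 0.17, adjusted p = 0.150). Fitted to rebuilt reads with limma-voom, it did pass (log2 change 0.11, adjusted p = 0.0160). IGF2R was the most abundant of the 3 receptors in both groups, at 9.18 ± 0.493 times IGF1R in resistant and 5.42 ± 0.0826 times in control libraries. This ratio did not overlap between the groups and had an exact permutation p = 0.1, the smallest the design allows. An antisense gene, AIRN, overlaps IGF2R, another overlaps IGFBP5, and 2 overlap IGF1R. Each was below 1 TPM on average in both groups, and reads of the 2 strands can be told apart only if the authors counted by strand, which is not given in the sources used here.

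The adaptors IRS1 and IRS2 went in opposite directions and changed places. IRS1 (ENSG00000169047, chromosome 2, 226731317 to 226799759) had 51.6, 55.6 and 53.5 TPM in the resistant libraries, against 38.0, 39.7 and 39.1 TPM in the control libraries. It was the only one of the 10 genes to rise (log2 change 0.45 ± 0.05, adjusted p = 1.93e-04). IRS2 (ENSG00000185950, chromosome 13, 109752698 to 109786568) had 28.3, 28.0 and 28.5 TPM in the resistant libraries, against 54.0, 53.9 and 51.4 TPM in the control libraries. Its level in resistant cells was 0.532 of that in control cells, and the 3 resistant libraries were within 1 TPM of each other (log2 change -0.89 ± 0.04, adjusted p = 7.93e-06). IRS1 over IRS2 was 1.82, 1.99 and 1.88 in the resistant libraries, against 0.703, 0.736 and 0.761 in the control libraries. IRS1 was thus the more abundant adaptor in every resistant library, and IRS2 in every control library (exact permutation p = 0.1, the smallest possible). Their sum differed less, at 81.8 ± 1.81 TPM in resistant and 92.0 ± 1.49 TPM in control libraries.

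**Figure D2:**
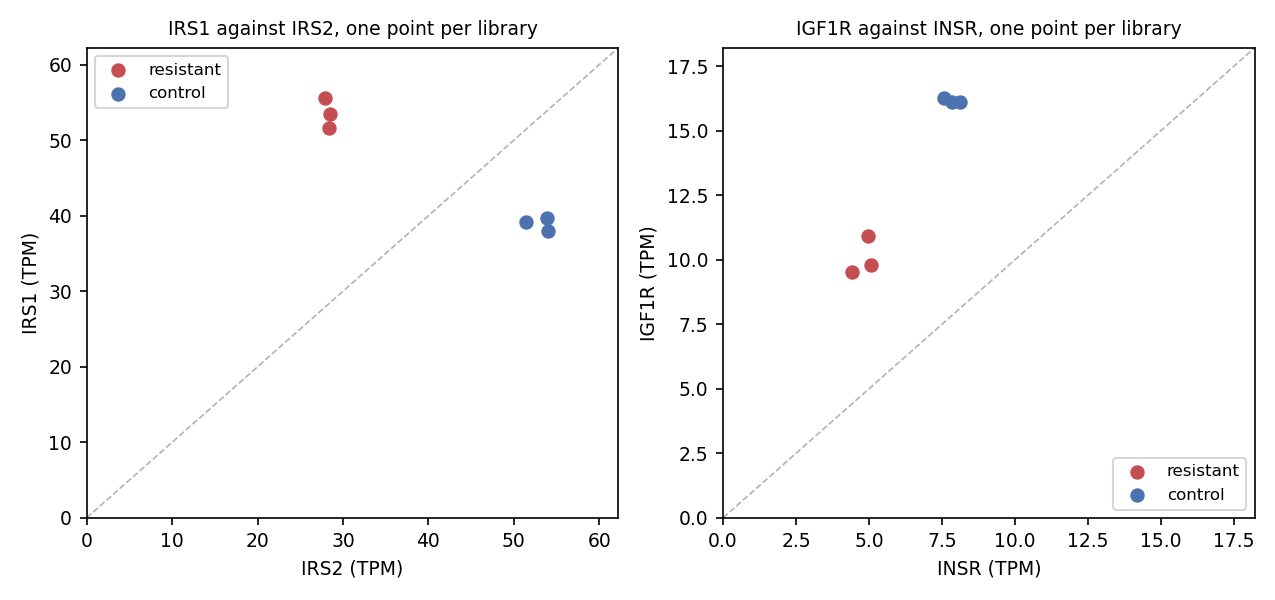
Left, IRS1 against IRS2, and right, IGF1R against INSR, both in TPM with 1 point per library; the dashed line marks equal levels. Resistant libraries lie above the line and control libraries below it for the adaptors, while for the receptors both groups lie above it at a similar ratio, 2.10 in resistant and 2.06 in control libraries.

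The promoters of the adaptors are shown because the genes moved in opposite directions. Each run is the 250 bases before the RefSeq gene start (GRCh38.p14), 5′ to 3′ on the strand of the gene, and capitals mark GGGCGG (the Sp1 or GC box), CCAAT (the CAAT box), TATAAA (the TATA box) and GTAAACA (a FOXO core motif), searched on both strands, with overlapping matches kept. IRS1 is at chr2:226799821-226800070 and IRS2 at chr13:109786584-109786833, both on the minus strand.
IRS1: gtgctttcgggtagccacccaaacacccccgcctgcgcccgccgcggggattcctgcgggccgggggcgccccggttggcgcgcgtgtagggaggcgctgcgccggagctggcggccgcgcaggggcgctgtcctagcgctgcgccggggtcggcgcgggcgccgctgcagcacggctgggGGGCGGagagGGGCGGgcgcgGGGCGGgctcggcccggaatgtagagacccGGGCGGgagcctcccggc
IRS2: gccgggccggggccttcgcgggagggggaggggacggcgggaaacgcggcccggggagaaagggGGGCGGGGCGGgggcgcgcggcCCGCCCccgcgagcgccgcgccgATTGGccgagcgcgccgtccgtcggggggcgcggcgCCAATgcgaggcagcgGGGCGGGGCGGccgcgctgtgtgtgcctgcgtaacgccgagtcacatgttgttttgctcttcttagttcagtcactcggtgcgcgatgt
The IRS1 window held 4 GC boxes and no CAAT box, and the IRS2 window held 5 GC boxes and 2 CAAT boxes. GC boxes occur in 42.6% and CAAT boxes in 32.0% of 35116 windows of the same length, and the GC content was 80.8% for IRS1 and 76.4% for IRS2, against a median of 58% over all windows. The exact letters GTAAACA of the FOXO core motif were in neither adaptor window nor in that of INSR. Among the 10 genes they were found only for IGFBP6, against 2.98% of all windows. Variant forms of the motifs were not searched, so these windows may hold FOXO sites with other letters.

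Of the 5 binding proteins, 4 fell, by very different amounts. IGFBP5 (ENSG00000115461, chromosome 2, 216672105 to 216695525) had 0.990, 1.20 and 1.14 TPM in the resistant libraries, against 36.0, 38.8 and 40.4 TPM in the control libraries. IGFBP5 binds IGF1 and IGF2 and also attaches to extracellular matrix. Its TPM in resistant cells was 0.0289 of that in control cells, and the estimated reads were 60 to 71 per resistant library and 2106 to 2735 per control library. The pseudocount of 1 shrinks the fold of a gene this low. On the log2(TPM + 1) scale it fell by 4.22 ± 0.08 (adjusted p = 2.93e-07), and by 5.07 in limma-voom. Of all tested genes, 99.96% had a smaller absolute log2 change than IGFBP5.

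IGFBP4 (ENSG00000141753, chromosome 17, 40443461 to 40457731) had 22.6, 28.8 and 26.5 TPM in the resistant libraries, against 50.4, 55.6 and 53.1 TPM in the control libraries. IGFBP4 is known mainly as an inhibitor of IGF action that is inactivated by the protease PAPPA. The highest resistant library was well below the lowest control library (log2 change -1.01 ± 0.09, adjusted p = 9.15e-05). IGFBP2 (ENSG00000115457, chromosome 2, 216632828 to 216664436), which is often abundant in epithelial tumours, had 105, 114 and 112 TPM in the resistant libraries, against 147, 156 and 155 TPM in the control libraries (log2 change -0.47 ± 0.05, adjusted p = 2.06e-04). It was the most abundant binding protein in control cells and the second in resistant cells.

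IGFBP3 (ENSG00000146674, chromosome 7, 45912245 to 45921874), the main carrier of IGFs in blood, had 61.7, 70.9 and 76.3 TPM in the resistant libraries, against 87.7, 92.7 and 90.8 TPM in the control libraries. The resistant libraries spread more than the control libraries, with an SD of 7.39 TPM against 2.53 TPM, and the groups did not overlap (log2 change -0.38 ± 0.08, adjusted p = 0.00501). IGFBP6 (ENSG00000167779, chromosome 12, 53097436 to 53102345), which prefers IGF2 over IGF1, had 106, 121 and 114 TPM in the resistant libraries, against 102, 109 and 101 TPM in the control libraries. These ranges overlapped, and the difference did not pass the test (log2 change 0.13 ± 0.06, 95% interval -0.011 to 0.26, adjusted p = 0.115). It passed without resistant replicate 1 (log2 change 0.17, adjusted p = 0.0373) and in limma-voom (log2 change 0.17, adjusted p = 0.0324). Resistant replicate 1 was the lowest resistant library for all 5 binding proteins, and control replicate 1 was the lowest control library for 4 of 5.

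The pool of binding protein transcripts was smaller in resistant cells and was made up differently. The 5 genes summed to 296, 336 and 329 TPM in the resistant libraries, against 423, 452 and 441 TPM in the control libraries. The ratio of the means was 0.731, and the groups did not overlap (exact permutation p = 0.1, the smallest possible). IGFBP5 made up 0.345 ± 0.0107% of the sum in resistant and 8.75 ± 0.362% in control libraries. IGFBP4 made up 8.08 ± 0.464% in resistant and 12.1 ± 0.204% in control libraries. IGFBP6 made up a larger share in resistant libraries, 35.5 ± 0.816% against 23.7 ± 0.611% in control libraries. Its own TPM did not pass the test (adjusted p = 0.115), while the other binding proteins in the sum fell. The share of IGFBP2 was nearly level, at 34.4 ± 0.801% in resistant and 34.8 ± 0.364% in control libraries (exact permutation p = 0.5).

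**Figure D3:**
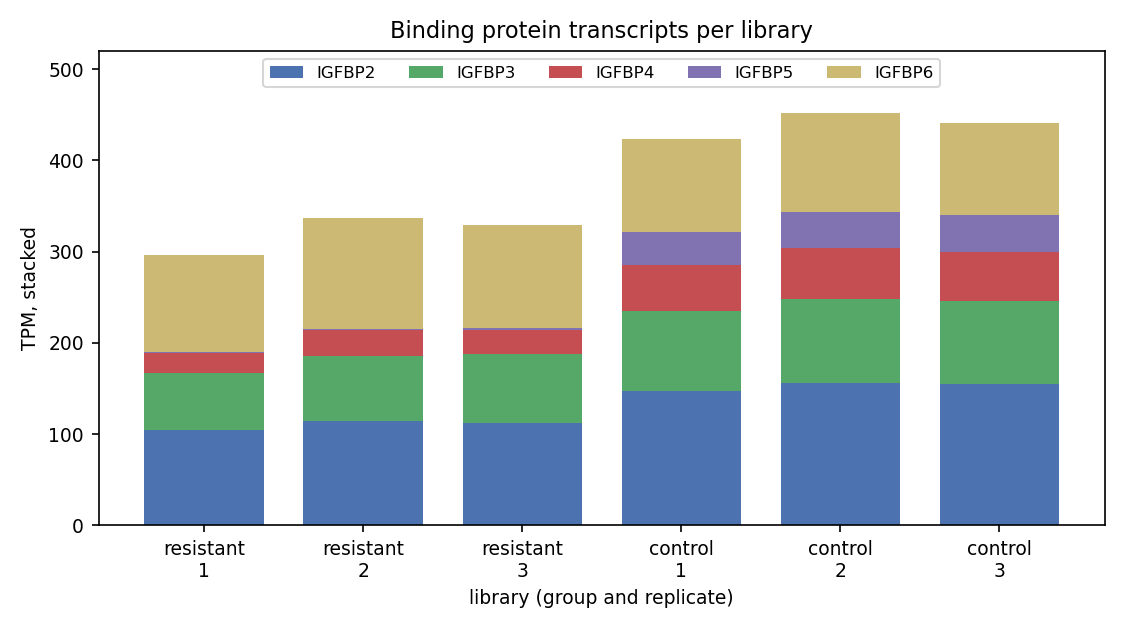
Stacked TPM of the 5 binding proteins in each library, resistant libraries on the left. The stacks reach 296 to 336 TPM in resistant and 423 to 452 TPM in control libraries, and the IGFBP5 layer is too thin to see in the resistant ones.

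The 2 binding proteins with a change of at least 2-fold are shown by their promoters, drawn in the same way. IGFBP4 is at chr17:40443200-40443449 on the plus strand and IGFBP5 at chr2:216695550-216695799 on the minus strand.
IGFBP4: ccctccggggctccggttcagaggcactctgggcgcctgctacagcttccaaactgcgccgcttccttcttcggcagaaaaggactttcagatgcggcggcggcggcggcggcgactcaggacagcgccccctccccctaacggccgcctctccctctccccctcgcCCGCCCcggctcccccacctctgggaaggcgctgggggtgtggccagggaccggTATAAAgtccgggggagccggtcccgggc
IGFBP5: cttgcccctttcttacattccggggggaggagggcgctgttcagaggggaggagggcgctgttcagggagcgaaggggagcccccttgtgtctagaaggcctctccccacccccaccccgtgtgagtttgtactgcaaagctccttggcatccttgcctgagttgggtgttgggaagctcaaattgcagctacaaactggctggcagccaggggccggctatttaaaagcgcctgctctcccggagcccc
The IGFBP4 window held 1 GC box and a TATA box that starts 29 bases before the gene start. TATA boxes with these letters occur in 10.7% of all windows. The IGFBP5 window held none of the 4 motifs in the exact letters searched. Variant letters were not searched, and the AT-rich run tatttaaaa near its end was therefore not counted as a TATA box. Of the 10 genes, IGFBP5 was the only one with no GC box in any window. Its GC content was 61.2% with 8 CpG sites, close to the median of all windows, which was 58% with 11 CpG sites. The receptor and adaptor windows lay at 76.4% to 81.2% GC and held 28 to 48 CpG sites each.

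Of the 10 genes, IRS2 and IGFBP3 lie on chromosomes with a median log2 change well below 0, so each of the 10 was set beside its surroundings. The surroundings were protein-coding genes that averaged 5 TPM or more over the 6 libraries. Their counts stand beside 24.0% higher and 24.7% lower among all tested genes. IRS2 (log2 change -0.89) lies on chromosome 13, where the median over 152 other genes was -0.58, and within 5 Mb of it 25 of 28 genes fell and 2 rose. Of the genes on that chromosome, 12.5% had a lower log2 change than IRS2. IGFBP3 (-0.38) lies on chromosome 7, where the median over 455 genes was -0.34, but the median of the 25 genes within 5 Mb was 0.03. How far the shift of chromosome 13 or 7 accounts for the values of IRS2 and IGFBP3 was not tested.

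The other genes lie on chromosomes with medians between -0.07 and 0.15. IGFBP4 (-1.01) fell where most neighbours rose: within 5 Mb, 85 of 107 genes rose and 2 fell, with a median of 0.38. Its nearest tested protein-coding neighbours both rose. They were TOP2A, which encodes DNA topoisomerase II alpha, at 148 ± 29.3 TPM in resistant and 95.1 ± 11.9 TPM in control cells (adjusted p = 0.0150), and TNS4, a tensin, at 29.9 ± 1.39 TPM in resistant and 12.3 ± 0.234 TPM in control cells (adjusted p = 6.86e-06). IGFBP2 and IGFBP5 lie end to end on chromosome 2 with 7.67 kb between them, and both fell, yet the median of the 41 genes within 5 Mb was 0.09. Their outer neighbours did not pass the test. RPL37A, a ribosomal protein gene, was at 357 TPM in resistant and 367 TPM in control cells (adjusted p = 0.469), and TNS1, another tensin, at 7.20 TPM in resistant and 6.57 TPM in control cells (adjusted p = 0.236), though TNS1 passed in limma-voom (adjusted p = 0.0404). IGF1R (-0.63) was below all 12 genes within 5 Mb, whose log2 changes ran from -0.29 to 0.35. Around INSR (-0.61), 46 of 161 genes within 5 Mb fell and 35 rose, with a median of 0.01 and changes from -1.20 to 2.12. Around IRS1 (0.45), 8 of 24 genes rose and 1 fell, with a median of 0.09 and a highest change of 1.53. Of all tested genes, 24.0% rose and 24.7% fell. IGF2R (0.08) and IGFBP6 (0.13) lay well inside the range of their surroundings, with 66.7% and 74.4% of the genes on their chromosomes at a lower log2 change.

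The other nearest tested neighbours varied. ARRDC4, 675 kb from IGF1R, was at 11.1 TPM in resistant and 9.14 TPM in control cells (log2 change 0.25, adjusted p = 0.0189). DOCK10, 1689 kb from IRS1, was at 15.8 TPM in resistant and 7.90 TPM in control cells (log2 change 0.91, adjusted p = 1.80e-04). ABHD13, 1518 kb from IRS2, fell as IRS2 did, at 4.66 TPM in resistant and 8.01 TPM in control cells (log2 change -0.67, adjusted p = 3.86e-04). COL4A1, 362 kb away on the other side, was at 12.9 TPM in resistant and 11.3 TPM in control cells (adjusted p = 0.0951). Of the neighbours of IGFBP3, ADCY1 rose (log2 change 0.80, adjusted p = 0.00564) and TNS3 fell (log2 change -0.56, adjusted p = 3.95e-05). Both neighbours of IGFBP6 fell, SPRYD3 by 0.21 (adjusted p = 0.0414) and CSAD by 0.54 (adjusted p = 0.00637) on the log2 scale. SYNM, ZNF557, ARHGEF18, MRPL18, MAP3K4 and RHBDD1, the remaining neighbours, did not pass the test. Of these, RHBDD1 lies 35.8 kb from IRS1, on the side away from DOCK10 (log2 change 0.02, adjusted p = 0.868). The call of ARRDC4 was lost without control replicate 1 (adjusted p = 0.0507), control replicate 3 (0.0652) or resistant replicate 1 (0.0507). That of SPRYD3 was lost without control replicate 2 (0.0847) or 3 (0.137) and without resistant replicate 1 (0.109) or 3 (0.102), while COL4A1 passed without resistant replicate 1 (adjusted p = 0.0363) and in limma-voom (adjusted p = 0.00729).

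**Figure D4:**
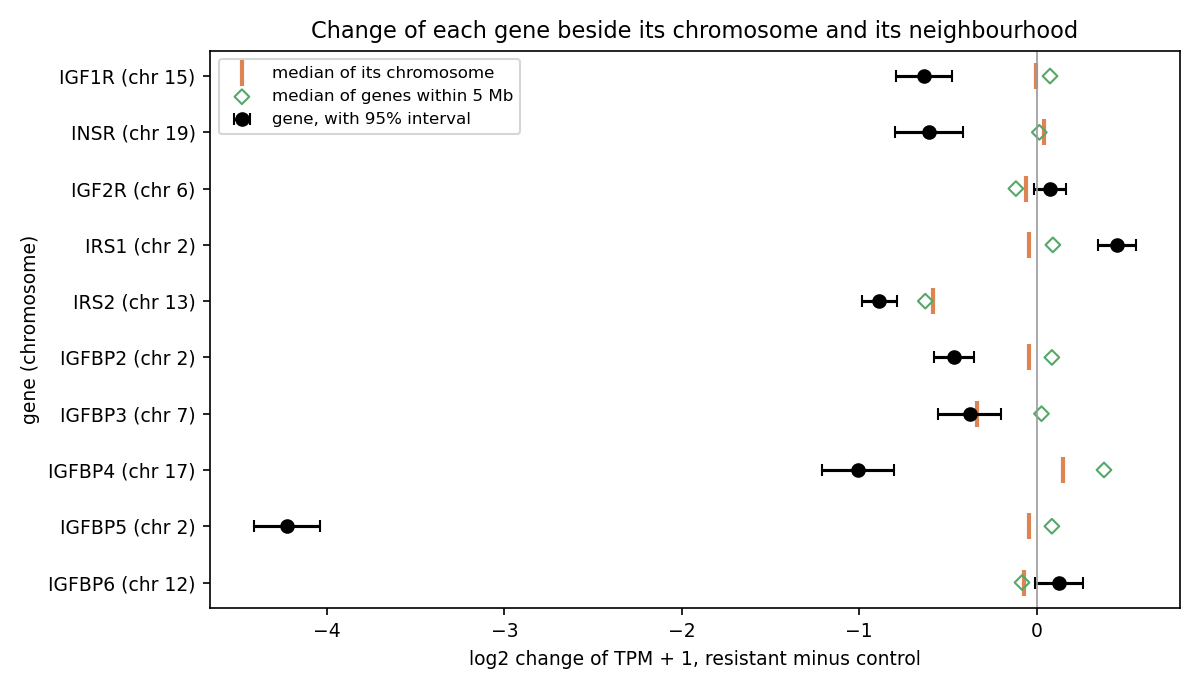
Log2 change of TPM + 1, resistant minus control, for each gene with its 95% interval, beside the median of the other expressed genes on its chromosome (bar) and of those within 5 Mb (diamond). IGFBP3 lies near its chromosome median of -0.34, IRS2 lies at -0.89, below its chromosome median of -0.58, and IGFBP4 lies at -1.01 beside a 5 Mb median of 0.38.

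Ligands of these receptors were scarce in both groups. IGF2 was at 3.03 TPM in resistant and 3.30 TPM in control cells (log2 change -0.10 ± 0.12, adjusted p = 0.521). IGF1 was at 0.00892 TPM in resistant and 0.00973 TPM in control cells, and INS, the insulin gene, was listed at 0 in all 6 libraries. IGFBP1, a binding protein known from liver, was at 0.540 TPM in resistant and 0.323 TPM in control cells, and IGFBP7 at 0.156 TPM in resistant and 0.0404 TPM in control cells. IGFALS, the partner of IGFBP3 in blood, was at 0.793 TPM in resistant and 0.701 TPM in control cells. IGFBPL1, INSRR and IRS4 were also below 1 TPM on average in both groups. Of these 9 genes only IGF2 was tested.

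Genes that free IGFs from binding proteins were measured with their inhibitors. Of 5 tested, 3 rose and 1 fell, where 24.0% of all tested genes rose and 24.7% fell. The list mixes proteases with their inhibitors, and its median log2 change of 0.66 is the value of STC2, an inhibitor. ADAM9, the most abundant of the 5, was at 146 TPM in resistant and 140 TPM in control cells and did not pass (adjusted p = 0.704). STC2, a stanniocalcin that inhibits PAPPA, rose to 45.9 TPM in resistant cells, against 28.6 TPM in control cells (log2 change 0.66 ± 0.05, adjusted p = 6.21e-05). STC1, its relative, fell to 3.25 TPM in resistant cells, against 5.73 TPM in control cells (log2 change -0.66 ± 0.09, adjusted p = 9.77e-04). The proteases PAPPA and HTRA1 were the others that rose, named after their values were seen. PAPPA was at 2.04 TPM in resistant and 0.287 TPM in control cells, and HTRA1 at 3.79 TPM in resistant and 1.28 TPM in control cells.

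Downstream of the adaptors, the PI3K, AKT and mTOR genes went both ways. Beside 24.0% higher and 24.7% lower among all tested genes, 5 of 27 tested rose (18.5%), 10 fell (37.0%) and 12 did not pass. The median log2 change was -0.05. The number that rose was 2 or 3 without control replicate 1 or 3 or any 1 resistant library. PIK3R3, a regulatory subunit of PI3K, had the largest change, at 11.3 TPM in resistant and 46.9 TPM in control cells (log2 change -1.96 ± 0.06, adjusted p = 1.09e-06). DEPTOR, an inhibitor of mTOR, fell to 4.61 TPM in resistant cells, against 12.8 TPM in control cells (log2 change -1.30). INPPL1, the lipid phosphatase SHIP2, fell to 59.7 TPM in resistant cells, against 87.8 TPM in control cells (log2 change -0.55).

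In the arm through SHC1, GRB2 and RAS, 4 of 16 tested genes rose (25%) and 6 fell (37.5%), beside 24.0% and 24.7% of all tested genes. The median log2 change was 0.003. The number that fell was 3 without control replicate 2 or 3 or resistant replicate 3, and the number that rose was 2 without resistant replicate 2. SHC1, an adaptor that links these receptors to RAS, rose to 213 TPM in resistant cells, against 135 TPM in control cells (log2 change 0.65). BRAF and SOS1 fell, with log2 changes of -0.73 and -0.61. BRAF is a chromosome 7 gene, and the shift of that chromosome, given above, was not tested for its part in this value. Among brakes and scaffolds of the receptors, 9 of 16 rose (56.25%), 1 fell (6.25%) and 6 did not pass (median 0.18). The shares of all tested genes were 24.0% higher and 24.7% lower. Of the 16, 5 rose without control replicate 1 or resistant replicate 2 or 3. SOCS1, which restrains IRS proteins and cytokine receptors, rose to 6.10 TPM in resistant cells, against 1.67 TPM in control cells (log2 change 1.43). CAV1 and MDM2 rose by 0.42 and 0.29 on the log2 scale, and SH2B1, an enhancer of insulin receptor signalling, fell by 0.28.

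The FOXO list was one-sided. FOXO factors are transcription factors that AKT keeps out of the nucleus, and INSR and IRS2 are known as FOXO target genes in other cells. FOXO activity was not measured, and its part in the values of INSR, IRS2 and the listed genes was not tested. IRS2 and FOXO1 are both chromosome 13 genes, and the shift of that chromosome is given above. Like the other lists, this one was chosen with earlier results of these data known. Of 14 tested FOXO factors and targets, 12 fell (85.7%, beside 24.7% of all tested genes), none rose and 2, FOXO3 and TRIB3, did not pass. The median log2 change was -0.53, beside -0.0044 over all tested genes. FOXO4 fell to 12.5 TPM in resistant cells, against 32.2 TPM in control cells (log2 change -1.30 ± 0.05, adjusted p = 4.80e-06). CCNG2, a cyclin linked to growth arrest, fell to 17.1 TPM in resistant cells, against 31.7 TPM in control cells. BCL6, a repressor, fell to 32.8 TPM in resistant cells, against 51.9 TPM in control cells, and BCL2L11, the death gene BIM, to 14.4 TPM in resistant cells, against 22.7 TPM in control cells. TRIB3, at 204 TPM in resistant and 189 TPM in control cells, was called higher by limma-voom and also without resistant replicate 1.

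**Figure D5:**
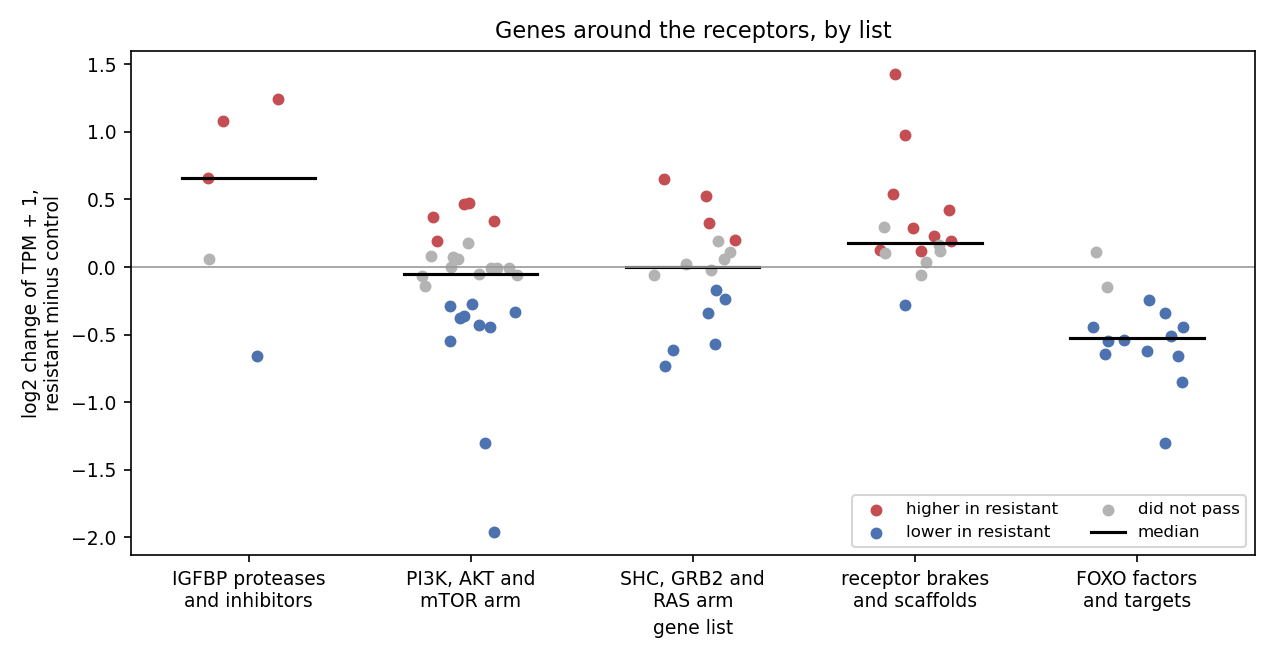
Log2 change of TPM + 1, resistant minus control, of each tested gene in 5 lists, coloured by its call, with the list median as a line. The FOXO list has its median at -0.53 and no gene called higher, while the PI3K and SHC lists have medians near 0.

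Over the 78 genes tested in all these lists, each counted once, 21 rose and 29 fell, which is 26.9% and 37.2%, beside 24.0% and 24.7% of all tested genes. The 21 became 13 without control replicate 1 and 12 without resistant replicate 2. PIK3R3, DEPTOR, FOXO4, SOCS1, PAPPA and HTRA1 were the 6 of 78 with a called change of at least 2-fold, beside 5.98% of all tested genes.

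Likeness of pattern was measured by Euclidean distance over log2(TPM + 1) of the 6 libraries, among protein-coding genes tested, as a description. The 3 nearest to IGF1R were LTBP1 (distance 0.089), MFHAS1 (0.157) and NUAK1 (0.180). LTBP1, a matrix protein that holds latent TGF-beta, was at 10.1 TPM in resistant and 15.8 TPM in control cells. The 3 nearest to IGFBP5 were farther away: MUC5B at 1.15, HSD3B1 at 1.78 and SYT12 at 1.83. MUC5B, an airway mucin, was at 0.652 TPM in resistant and 26.0 TPM in control cells. All 6 libraries enter each distance, so the difference between the groups sets most of it.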

How the data were processed

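The authors deposited 1 table of TPM with a column per library, and each column summed to 1000000. HISAT2 is named per the submitters' processing notes. No version, counter, build, annotation or strand setting is given in the sources used. Libraries were made with a stranded mRNA kit, per the labels' protocols. Coordinates are those of GENCODE 29 (GRCh38), which held all 51537 gene identifiers; promoters are from RefSeq (GRCh38.p14), in which all 10 genes matched, IGFBP2 with several starts.

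The 16077 genes that reached 1 TPM in 3 or more libraries were tested with limma 3.58.1 in R 4.3.3 on log2(TPM + 1), with group as the only term, a mean-variance trend and robust moderation (statmod 1.5.0). Tests were two-sided, adjusted by Benjamini-Hochberg over all tested genes, and called below 0.05. All adjusted p-values are from this fit unless another is named. The fit was tested on simulated data. Reads were rebuilt as TPM times union exon length divided by the value of 1 read; 77.6% to 78.4% of values up to 100 reads were whole within 0.01. Replicates differed by more than counting noise (chi-square per gene 4.05 to 11.9).

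The 10 genes, the lists and the tests were chosen with earlier results of these data known. Named in the text are all 10 genes, their nearest tested protein-coding neighbours and, per list, up to 4 called genes, largest absolute change first, that averaged 5 TPM or more in either group. The results of 2 genes that this choice takes stay unreported. RACK1 was found by its identifier under an older name. Alternatives were a pseudocount of 0.1, no filter, a filter at 5 TPM, median-ratio scaling, a replicate block, each library left out, and limma-voom on rebuilt reads.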

Additional observations from a re-analysis of the deposited data

How the results depend on the processing

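Of 120 values of the 10 genes under the alternatives, 117 kept their direction and their side of the threshold, and the other 3, 1 of IGF2R and 2 of IGFBP6, passed it in the same direction. The number of the 10 genes called lower was 7 in every alternative run. The number called higher was 1, except for 3 with limma-voom on rebuilt reads, and ran from 1 to 2 when 1 library was left out. Genes of the pathway lists called higher numbered 21, and 12 to 18 when 1 library was left out, the lowest values being 12 without resistant replicate 2 and 13 without control replicate 1. The log2 ratio of summed binding proteins was -0.45, and -0.49 to -0.40 when 1 library was left out. Replicate numbers did not pair the libraries: same-numbered libraries had correlations of deviations of -0.058, -0.0017 and -0.016, and 0 of 3 resistant libraries correlated best with their own number. With the replicate block, 3433 genes were called higher and 3423 lower, against 3852 and 3963 without it, and the 10 genes kept their calls. Among neighbours that did not pass the test, the log2 change turned sign when 1 library was left out for MRPL18 (-0.039 to 0.049), RHBDD1 (-0.034 to 0.051) and MAP3K4 (-0.10 to 0.046), and with limma-voom for MAP3K4 (0.014). The calls of ARRDC4 and SPRYD3 were lost in 4 and 5 alternatives. IGFBP5 in resistant cells rests on 60 to 71 estimated reads per library, which limits the precision of its fold.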

Other observations

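Tensins, which link integrins to actin, lie 18.1 kb to 1353 kb from binding protein genes. Their values were looked up after those of the neighbours had been seen. TNS4, which lies 18.1 kb from IGFBP4, rose where IGFBP4 fell (log2 change 1.21 ± 0.06, adjusted p = 6.86e-06). TNS3, 1353 kb from IGFBP3, fell as IGFBP3 did, at 74.4 ± 1.85 TPM in resistant and 110.2 ± 1.88 TPM in control cells. TNS1, 1104 kb from IGFBP5, did not pass the test (log2 change 0.12 ± 0.07, adjusted p = 0.236; 0.0404 in limma-voom) while IGFBP5 fell by 4.22 on the log2 scale. TNS2, 33.1 kb from IGFBP6, was at 3.14 ± 0.370 TPM in resistant and 3.84 ± 0.0682 TPM in control cells. It did not pass (log2 change -0.23, adjusted p = 0.112). IGFBP6 did not pass either, with a log2 change of the other sign (0.13).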
